A study of Oryctolagus cuniculus with 6 samples.

Results

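The IL-1 and IL-6 family cytokines were described by 10 genes chosen by symbol: IL1A, IL1B, IL1RN, IL1R1, IL1R2, IL33, IL6, IL11, OSM and LIF. Of these, 9 were among the 17396 genes listed for facial nerve RNA of 6 male Japanese white rabbits aged 3 to 4 months, and IL11 was not analysed here. In both groups of 3 rabbits, all wild type, the main trunk of the facial nerve had been transected, and the nerves were harvested 14 days later. The FNI group (facial nerve injury) had the transection alone. The FNI+I-125 group also had an I-125 seed, a source of low-energy γ-rays with an activity of 0.8 mCi, implanted beside the nerve. Every comparison is therefore between injured nerves with and without a seed, and nerves without a transection were not analysed here. The values are mRNA of whole nerve tissue, in which fewer cells of a type and less RNA per cell cannot be told apart.

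IL-1α (IL1A) and IL-1β (IL1B) are agonists that signal through the receptor IL1R1, and IL-33 (IL33) is a related agonist with a receptor of its own. Their action is limited by IL1RN, the receptor antagonist, which occupies IL1R1 without signalling, and by IL1R2, a decoy receptor that binds IL-1 but does not signal. IL-6, IL-11, oncostatin M (OSM) and leukemia inhibitory factor (LIF) are agonists that share the signal chain gp130, encoded by IL6ST. In injured peripheral nerve, Schwann cells, macrophages and other recruited cells are known sources of these cytokines, which take part in macrophage recruitment and in the response of neurons to axotomy.

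Total counts ran from 16031151 to 16798012 per library, and a count of 0 at this depth allows up to 3 counts, for counting error only. CPM values are the counts relative to library size in the usual CPM unit, after TMM normalization. SE is the standard error of a log2 fold change, and the edgeR adjusted p of a gene is its Benjamini-Hochberg value over all genes tested. Markers of Schwann cells were present in every library, with 8 of 8 genes detected and a summed level of 1820.0 to 9505 CPM in the FNI group and 445.5 to 1416 CPM in the FNI+I-125 group. Libraries differed in other cell types. FNI replicate 3 had the highest Schwann cell level, and its macrophage and monocyte level (305 CPM over 12 genes) was below those of the other FNI libraries (901 and 1138 CPM). Skeletal muscle markers (9 genes) stood at 4875 and 4322 CPM in FNI+I-125 replicates 1 and 2 and at 45.6 to 156 CPM in the other libraries. Among the FNI libraries, replicate 3 was lowest for 8 of the 9 cytokine genes. FNI+I-125 replicate 1 was highest of all libraries for 6 of the 9, namely IL1A, IL1B, IL1RN, IL6, OSM and LIF.

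In the FNI+I-125 group, IL1A, IL1B, IL1RN and OSM were above every FNI library in each of the 3 libraries. The remaining 5 genes overlapped between the groups. The antagonist IL1RN was well above the FNI range in all 3 seed-bearing nerves, while the agonists IL1A, IL1B, IL6 and OSM were highest by far in replicate 1. The decoy IL1R2 and the agonist IL33 stood at similar means in both groups. A gene was called at an adjusted p under 0.05 (edgeR's quasi-likelihood test, Benjamini-Hochberg over all 14003 genes tested) with a log2 fold change of at least 1.5 in either direction. Of the 8 cytokine genes tested, 0 were called, as were 0.00% of all genes tested. IL1A was removed by the filter for low counts. When the p was left unadjusted and the fold change criterion kept, 3 of the 8 were higher with the seed (IL1B, IL1RN and OSM) and 0 lower, against 2.77% and 2.19% of all genes tested (4.96% together). Without FNI+I-125 replicate 1 the count was again 3, against 1.85% of the genes then tested. On the fold change alone, 4 of the 8 (the same 3 and IL6) were past 1.5, against 7.98% of all genes tested. DESeq2 called the same 3 genes at its adjusted p, against 1.69% of all genes as higher and 2.85% in either direction, and limma-voom called 0, with IL1RN alone at its unadjusted p. Groups without overlap, higher with the seed, were found for 3 of the 8 (IL1B, IL1RN and OSM) and for 14.8% of all genes tested. In either direction, 27.2% of all genes tested were separated. IL6 and OSM each had 10 or more counts in 1 FNI library only, so that they were kept through their FNI+I-125 libraries, and the counts over the 8 genes are given as a description.

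**Figure D1:**
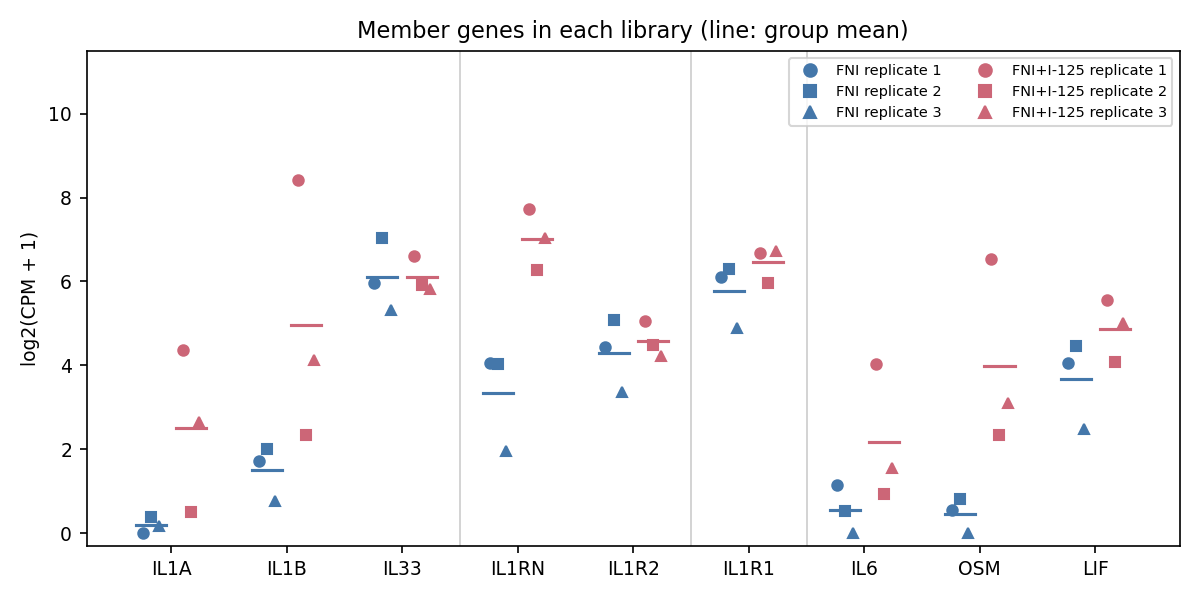
Level of each cytokine gene in each library, as log2(CPM + 1), with agonists of the IL-1 family, the antagonist and decoy, the receptor IL1R1 and the IL-6 family agonists separated by vertical lines. Short lines are group means of 3 libraries. FNI+I-125 replicate 1 stands far above the other libraries for IL1A, IL1B, IL6 and OSM, whereas IL1RN is separated between the groups in all libraries.

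IL1B, the main secreted agonist of activated myeloid cells, was counted 39, 48 and 12 times in the nerves with injury alone (replicates 1, 2 and 3, the order used throughout). In the seed-bearing nerves it was counted 5249, 66 and 280 times. On the CPM scale these were 2.28, 3.02 and 0.709 against 343, 4.02 and 16.4. All seed-bearing nerves lay above all FNI nerves, but FNI+I-125 replicate 2 was close to FNI replicate 2. The means were 2.01 ± 1.18 CPM in the FNI group and 121 ± 192 CPM in the FNI+I-125 group (SD, n = 3 each), which gave a log2 value of 5.91 for the fold change (SE 1.86, edgeR adjusted p = 0.280). Without FNI+I-125 replicate 1, the log2 fold change of IL1B was 2.35 (unadjusted p = 0.0391 from the same edgeR test). Without FNI replicate 1 or FNI replicate 3, its unadjusted p was 0.0587 and 0.0595.

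IL1A, the agonist that is also released by damaged cells, had 0, 5 and 2 counts with injury alone, against 300, 7 and 90 with the seed. The level in FNI+I-125 replicate 2, 0.426 CPM, was just above the highest FNI level, 0.315 CPM. The other seed-bearing nerves stood at 19.6 and 5.28 CPM. Without the filter on low counts, the log2 fold change of IL1A was 5.80 (SE 1.62, edgeR adjusted p = 0.322). The FNI counts behind this value are at or near the floor of 3 counts. In DESeq2 without the filter, the adjusted p of IL1A was 0.00290.

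IL33, a nuclear cytokine of fibroblasts, endothelial and glial cells, stood at 61.5, 129 and 38.8 CPM in the FNI libraries and at 96.1, 58.9 and 55.6 CPM in the FNI+I-125 libraries. The highest level was in FNI replicate 2, and the groups overlapped throughout. The means were 76.5 ± 47.1 and 70.2 ± 22.5 CPM (SD, n = 3 each). The log2 fold change of IL33 was -0.12 (SE 0.47, edgeR adjusted p = 0.903). The sign of this value changed with the library left out, and no direction is drawn from it.

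IL1RN, the receptor antagonist, had 265, 244 and 49 counts with injury alone, against 3216, 1264 and 2203 with the seed. On the CPM scale it stood at 15.5, 15.4 and 2.90 against 210.2, 76.9 and 129. The lowest seed-bearing nerve was thus well above the highest FNI nerve. The means were 11.3 ± 7.25 CPM and 139 ± 67.1 CPM (SD, n = 3 each), which gave a log2 value of 3.62 for the fold change (SE 0.73, edgeR adjusted p = 0.280, unadjusted p = 0.00260). When libraries were omitted one at a time, the log2 fold change of IL1RN stayed between 3.15 and 3.92. Its unadjusted p stayed under 0.05 in each of these fits, with a highest value of 0.00848. For IL1RN, IL1B, IL1A and OSM, the exact permutation test of log2(CPM + 1) gave p = 0.1, the smallest p that 3 libraries against 3 allow.

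IL1R2, the decoy, stood at 20.5, 33.1 and 9.34 CPM in the FNI libraries and at 32.0, 21.3 and 17.5 CPM in the FNI+I-125 libraries. The groups overlapped, with the highest level in FNI replicate 2. The means of IL1R2 were 21.0 ± 11.9 and 23.6 ± 7.51 CPM (SD, n = 3 each). The fold change of IL1R2 was 0.17 on the log2 scale (SE 0.48, edgeR adjusted p = 0.863), and this value also changed sign with the library left out.

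IL1R1, the signalling receptor, stood at 67.9, 77.9 and 28.6 CPM in the FNI libraries and at 102, 61.2 and 105 CPM in the FNI+I-125 libraries. FNI replicate 3 was the low value, and FNI+I-125 replicate 2 lay below both other FNI libraries. The means were 58.1 ± 26.1 and 89.3 ± 24.4 CPM (SD, n = 3 each). For IL1R1, the log2 fold change was 0.62 (SE 0.41, edgeR adjusted p = 0.435), or 0.27 without FNI replicate 3.

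OSM, an IL-6 family cytokine of neutrophils and macrophages, had 8, 12 and 0 counts with injury alone, against 1410, 66 and 128 with the seed. On the CPM scale, the seed-bearing nerves stood at 92.2, 4.02 and 7.51, and the highest FNI nerve stood at 0.756. The highest FNI nerve was thus below the lowest seed-bearing nerve. For OSM, the log2 fold change was 6.39 (SE 1.72, edgeR adjusted p = 0.280). Without FNI+I-125 replicate 1 it was 3.80 (unadjusted p = 0.0271 from the same edgeR test).

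IL6 had 21, 7 and 0 counts with injury alone, against 236, 15 and 33 with the seed. FNI+I-125 replicate 2, at 0.913 CPM, was under the 1.23 CPM of FNI replicate 1, so the ranges crossed. For IL6, the log2 fold change was 3.43 (SE 1.54, edgeR adjusted p = 0.313). Without FNI+I-125 replicate 1 it was 1.34 (SE 1.39, unadjusted p = 0.378 in that edgeR fit).

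LIF, which acts on injured neurons and Schwann cells through LIFR and gp130, stood at 15.7, 20.9 and 4.55 CPM in the FNI libraries. In the FNI+I-125 libraries it stood at 46.0, 15.8 and 31.0 CPM. FNI+I-125 replicate 2 lay within the FNI range and the other seed-bearing nerves above it. The means of LIF were 13.7 ± 8.36 and 30.9 ± 15.1 CPM (SD, n = 3 each), and the fold change of LIF was 1.17 on the log2 scale (SE 0.63, edgeR adjusted p = 0.354). It was 0.74 without FNI replicate 3 and 0.77 without FNI+I-125 replicate 1.

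**Figure D2:**
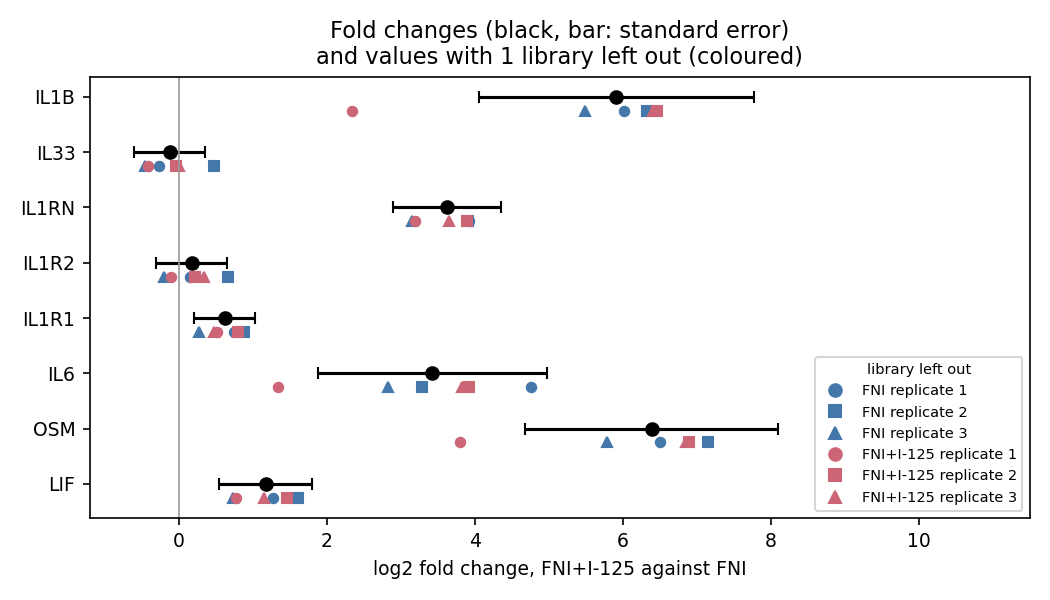
Log2 fold changes of the 8 cytokine genes tested, FNI+I-125 against FNI (black points, bars of 1 standard error), with the values after leaving out each library below them (coloured by the group and shaped by the number of the library left out). The value without FNI+I-125 replicate 1 is far to the left for IL1B (2.35), OSM (3.80) and IL6 (1.34), while all values of IL1RN lie between 3.15 and 3.92.

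Agonists were then compared with the antagonist and the decoy within each library, as the log2 ratio of their counts with 0.5 added. A ratio within a library needs no normalization, and gene length cancels in the difference between groups, so only differences of ratios are compared. For IL1B over IL1RN, the log2 ratios were -2.75, -2.33 and -1.99 with injury alone, against 0.71, -4.25 and -2.97 with the seed. FNI+I-125 replicate 1 lay above the FNI range and the other seed-bearing nerves below it. In counts, there were 14.7 to 24.5 of IL1B per 100 of IL1RN with injury alone, and 163, 5.22 and 12.7 with the seed. The means were -2.36 ± 0.38 and -2.17 ± 2.57 (SD, n = 3 each), a difference of 0.18 (exact permutation test, two-sided, p = 1). Without FNI+I-125 replicate 1 the difference was -1.26, with the ratio lower in the FNI+I-125 group.

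For IL1A over IL1RN, the log2 ratios were -9.05, -5.47 and -4.31 against -3.42, -7.40 and -4.61. The difference of the means was 1.14 (exact permutation test, p = 0.6), and it became -0.25 without FNI replicate 1, whose IL1A count was 0. It was 0.715 with 1 count added in place of 0.5 and 0.245 with 2 counts added. Neither ratio of an agonist to IL1RN was thus separated between the groups.

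Against the decoy the groups were separated. For IL1B over IL1R2, the log2 ratios were -3.15, -3.44 and -3.66 with injury alone, against 3.42, -2.40 and -0.09 with the seed. The FNI ratios lay close together, with an SD of 0.26, and each seed-bearing nerve lay above them. The difference of the means was 3.73, and without FNI+I-125 replicate 1 it was 2.17. For IL1A over IL1R2, the log2 ratios were -9.45, -6.58 and -5.99 against -0.71, -5.55 and -1.73, a difference of 4.68. IL1B over IL1R1 differed by 3.33, or 1.65 without FNI+I-125 replicate 1, and again no FNI library overlapped. The exact permutation test gave p = 0.1 for each of these 3 ratios, the smallest p this design allows.

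For IL1R1 over IL1R2, the signalling receptor against the decoy, the log2 ratios were 1.73, 1.24 and 1.61 against 1.67, 1.52 and 2.58. FNI+I-125 replicate 3 alone lay above the FNI range. The difference was 0.40 (exact permutation test, p = 0.5), or 0.07 without FNI+I-125 replicate 3 and 0.25 without FNI replicate 2. With 6 ratios compared, the Benjamini-Hochberg adjusted values of these exact tests ran from 0.2 to 1.

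**Figure D3:**
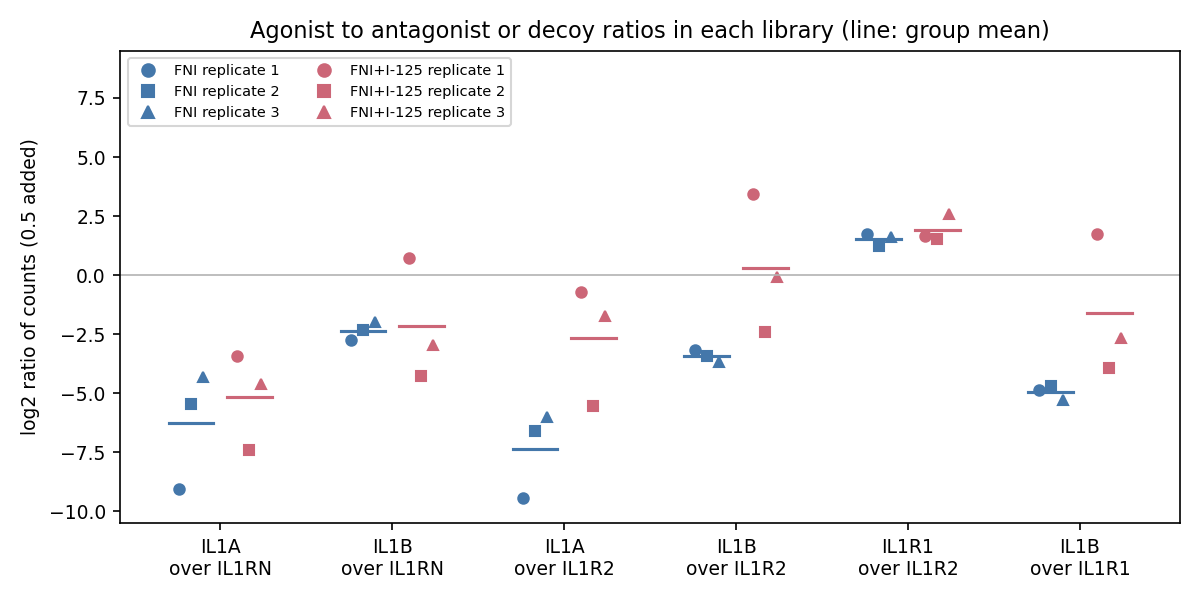
Log2 ratio of the counts of each pair of genes, with 0.5 added, in each library, with group means of 3 libraries as short lines. The ratios to the decoy IL1R2 of IL1A and IL1B are higher in every FNI+I-125 library. For IL1A, FNI+I-125 replicate 2 lies just above FNI replicate 3, on IL1A counts of 7 and 2. The ratios to the antagonist IL1RN overlap, with FNI+I-125 replicate 2 at -4.25 for IL1B below the FNI libraries.

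The other genes of these pathways were taken from lists written from general knowledge, with no test of a list as a whole. They were counted at an unadjusted p under 0.05 in edgeR's test without a fold change criterion, which 9.23% of all genes tested met as higher and 7.73% as lower. The median log2 fold change of all genes tested was 0.01, and 51.1% had a positive value. No gene of these lists was called at edgeR's adjusted p. DESeq2 called, besides IL1B, IL1RN and OSM, 7 genes as higher (CXCL8, IL18R1, IL1RL2, MMP1, PTGS2, SAA3 and SELE) and 3 as lower (CNTF, CNTFR and LIFR). Of the higher genes, IL18R1, IL1RL2 and MMP1 passed the filter for low counts only through their FNI+I-125 libraries. At its adjusted p and the log2 fold change of 1.5, it called 1.69% of all genes as higher and 2.85% in either direction.

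Of the other IL-1 family ligands, IL18, an agonist activated by caspase-1, stood at 73.6, 60.1 and 46.9 CPM against 102, 74.3 and 61.2 CPM and overlapped between the groups. IL36A, IL36G, IL36RN, IL37 and IL1F10 were removed by the filter for low counts. IL36G had 30 counts in FNI+I-125 replicate 1 and 0 in the other libraries. The count of higher ligands, 2 of 4 tested, was 4 of 6 without FNI replicate 2 or FNI+I-125 replicate 2. The ligands added in those fits had under 10 counts in every FNI library. They were thus kept through their FNI+I-125 libraries, and the larger count is a description only. In the list of IL-1 receptors, co-receptors and decoys, all 8 genes tested had a positive log2 fold change, with a median of 1.30. Of these, 4 were higher at the unadjusted p, and 6 were separated between the groups as higher, against 14.8% of all genes tested. IL1RAP, the accessory chain that IL1R1 needs for signalling, stood at 6.44, 8.19 and 7.15 CPM with injury alone and at 32.8, 12.1 and 12.6 CPM with the seed. The fold change of IL1RAP was 1.40 on the log2 scale (SE 0.44), or 0.77 without FNI+I-125 replicate 1. IL18R1, a chain of the IL-18 receptor, had 13, 8 and 2 counts against 161, 31 and 25, and IL1RL2, the IL-36 receptor, had 16, 25 and 2 counts against 217, 57 and 67. Their log2 fold changes were 3.30 (SE 1.05) and 3.03 (SE 0.99). IL18R1 had 10 or more counts in 1 FNI library only and was thus kept through its FNI+I-125 libraries. The count of 4 genes, which includes it, was 1 without FNI replicate 1 or FNI replicate 3 and 2 without FNI+I-125 replicate 1.

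Of the 8 genes tested for processing and release of IL-1, 3 were higher at the unadjusted p and 0 were lower. The higher genes were GSDMD, which forms the membrane pore, with 9.96, 10.5 and 4.55 CPM against 26.2, 19.1 and 14.9 CPM, and the caspases CASP4 and CASP8. The log2 fold changes were 1.27 (SE 0.38) for GSDMD, 1.41 (SE 0.54) for CASP4 and 1.43 (SE 0.55) for CASP8. The inflammasome sensor NLRP3 overlapped between the groups, at 32.6, 37.3 and 9.46 CPM against 50.9, 31.2 and 24.8 CPM. CASP1, which cleaves pro-IL-1β, stood at 2.69, 4.10 and 0.887 CPM against 7.97, 8.58 and 3.82 CPM, with an overlap through FNI+I-125 replicate 3. P2RX7, the ATP-gated channel upstream of IL-1 release, was lower without overlap, at 40.7, 32.6 and 71.3 CPM against 17.3, 29.6 and 32.4 CPM. The log2 fold change of P2RX7 was -0.87 (SE 0.37, unadjusted p = 0.0587 in edgeR), and its unadjusted p was 0.0321 in DESeq2. NLRP3, CASP1 and P2RX7 were chosen after their values were seen. The count of 3 was 1 without FNI replicate 1 or FNI+I-125 replicate 2 and 0 without FNI+I-125 replicate 1.

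Among 22 genes of IL-1 receptor signalling, 19 had a positive log2 fold change, with a median of 0.32, and 5 were higher at the unadjusted p. NFKBIE, an inhibitor of NF-κB, stood at 16.9, 21.4 and 12.6 CPM against 40.2, 42.6 and 27.1 CPM (log2 fold change 1.11, SE 0.27). With single libraries omitted, the log2 fold change of NFKBIE ran from 0.92 to 1.31. MYD88, the adaptor of the receptor, stood at 62.3, 60.1 and 40.2 CPM against 88.1, 82.9 and 70.9 CPM (log2 fold change 0.57, SE 0.20). IRAK1, the kinase it recruits, stood at 50.5, 45.4 and 27.9 CPM against 70.9, 65.9 and 60.2 CPM (0.67, SE 0.24). Each of these genes was separated between the groups. The count of 5 was 1 without FNI+I-125 replicate 1, and 3 without FNI replicate 3 or FNI+I-125 replicate 2.

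Of 6 IL-6 family ligands tested, OSM was higher and CNTF lower at the unadjusted p. CNTF, ciliary neurotrophic factor of myelinating Schwann cells, stood at 17.3, 7.31 and 103 CPM in the FNI libraries and at 3.40, 6.63 and 3.58 CPM in the FNI+I-125 libraries. The groups did not overlap, but replicates 2 of both groups stood close together. The log2 fold change of CNTF was -3.22 (SE 1.04). It was -1.46 without FNI replicate 3, the library with the highest Schwann cell level, and its unadjusted p was over 0.05 without FNI+I-125 replicate 1 or 3. CLCF1, a further ligand of the CNTF receptor chosen after its values were seen, overlapped between the groups (log2 fold change 0.13, SE 0.54).

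The receptor list of the IL-6 family had 8 genes tested, of which 2 were lower and 1 was higher at the unadjusted p, with a median log2 fold change of -0.19. LIFR, the receptor chain of LIF, stood at 46.9, 77.4 and 142 CPM in the FNI libraries and at 30.7, 27.3 and 35.6 CPM in the FNI+I-125 libraries. All seed-bearing nerves were below all FNI nerves, a log2 fold change of -1.51 (SE 0.41), or -1.01 without FNI replicate 3. CNTFR, the CNTF receptor, stood at 38.4, 44.2 and 164 CPM against 26.5, 22.3 and 26.1 CPM, a log2 fold change of -1.72 (SE 0.59), or -0.74 without FNI replicate 3. IL27RA, the IL-27 receptor, was the gene with higher levels (log2 fold change 1.12, SE 0.39). Without FNI+I-125 replicate 1 or 3 the count of lower genes was 1, and without FNI+I-125 replicate 2 or 3 the count of higher genes was 0, against 2 without FNI replicate 2.

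The receptors of the other ligands overlapped between the groups and were chosen after their values were seen. IL6ST, the shared chain gp130, stood at 462, 437 and 279.8 CPM against 348, 329 and 443 CPM (log2 fold change -0.07, SE 0.24). OSMR, the OSM receptor chain, stood at 85.3, 117 and 52.5 CPM against 133, 92.7 and 123 CPM (0.45, SE 0.31). IL6R, the IL-6 receptor, stood at 27.0, 37.99 and 21.7 CPM against 111, 34.5 and 34.8 CPM (1.05, SE 0.53), and the log2 fold change was 0.26 without FNI+I-125 replicate 1. IL11RA, the IL-11 receptor, stood at 71.5, 76.3 and 54.4 CPM against 48.4, 68.8 and 46.7 CPM (-0.30, SE 0.21).

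Of 13 genes of gp130 signalling, 4 were higher at the unadjusted p and 0 were lower. PTPN6, a phosphatase of blood cells, stood at 39.5, 46.6 and 8.27 CPM against 80.7, 134 and 89.9 CPM (log2 fold change 1.69, SE 0.62). JAK2, a kinase of the pathway, had a log2 fold change of 0.63 (SE 0.23), and the adaptor GRB2 had 0.43 (SE 0.12). SOCS3, the feedback inhibitor of gp130 that STAT3 induces, stood at 42.1, 42.4 and 8.87 CPM against 246, 44.0 and 53.6 CPM. It was chosen after its values were seen, and the groups did not overlap. SOCS3 had a log2 fold change of 1.88 (SE 0.89) that became 0.65 without FNI+I-125 replicate 1. The count of 4 was 1 without FNI replicate 1 or FNI+I-125 replicate 2 and 2 without FNI replicate 2 or FNI replicate 3.

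In the list of genes that respond to IL-1 or IL-6, 22 of 23 genes tested had a positive log2 fold change, with a median of 1.25. MMP3, one of the 22, had 10 or more counts in 1 FNI library only and was thus kept through its FNI+I-125 libraries. Without the filter on low counts, 26 of 28 genes had a positive value. Of the 23 tested, 8 were higher at the unadjusted p. Groups were separated as higher for 9 of the 23, against 14.8% of all genes tested. MMP1 is in both of these counts, which are a description only. CXCL8, the neutrophil-attracting chemokine, had 37, 33 and 20 counts with injury alone, against 6650, 201 and 478 with the seed. CXCL8 had a log2 fold change of 6.45 (SE 1.61) that became 3.47 without FNI+I-125 replicate 1. SELE, the endothelial selectin, stood at 5.62, 6.93 and 1.54 CPM against 41.6, 15.2 and 20.8 CPM (2.46, SE 0.65). MMP1, a collagenase, had 45, 385 and 9 counts against 3568, 4094 and 5608 (4.89, SE 1.34, and 7.41 without FNI replicate 2). Unlike IL1B, MMP1 was at a similar level in all seed-bearing nerves, of 233, 249 and 329 CPM. The acute phase gene SAA3, chosen after its values were seen, stood at 109, 88.0 and 4.08 CPM against 3159, 342 and 1320.0 CPM. The count of 8 was 5 without FNI replicate 3 and 4 without FNI+I-125 replicate 1.

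**Figure D4:**
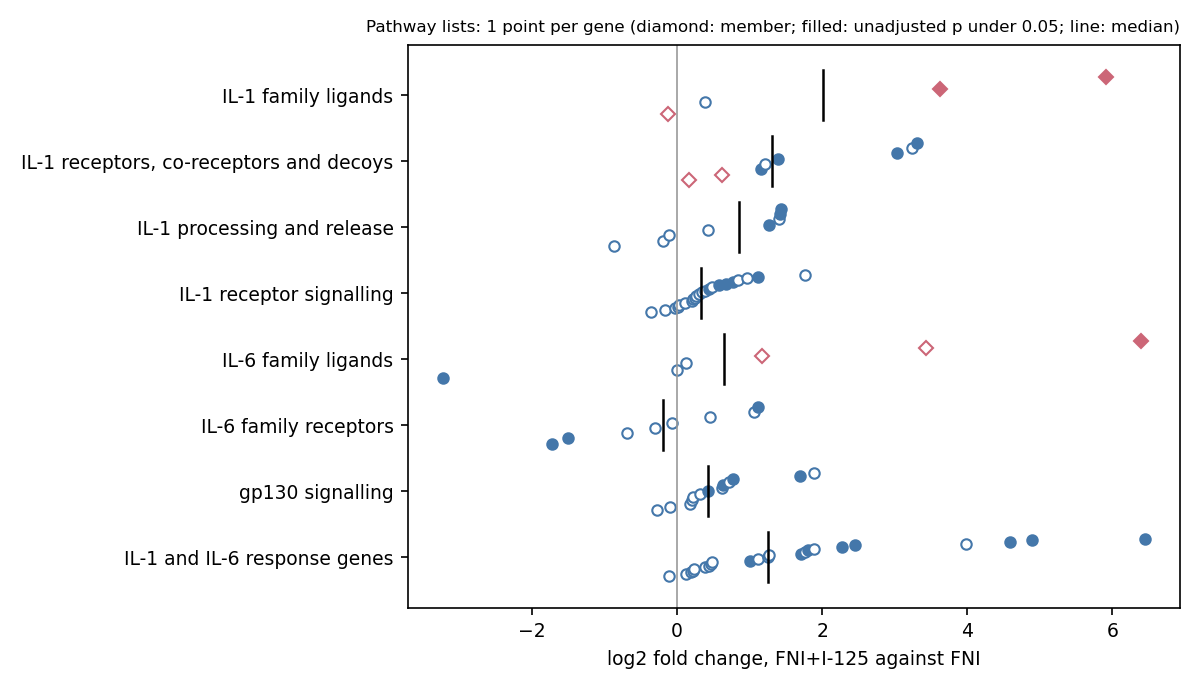
Log2 fold change of each gene tested in the 8 pathway lists, FNI+I-125 against FNI, with diamonds for the genes named at the outset, filled marks for an unadjusted p under 0.05 in edgeR's test and a black line at each list's median. The medians run from -0.19 for the IL-6 family receptors to 2.01 for the IL-1 family ligands, where 4 genes were tested.

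Neutrophil and macrophage markers were higher with the seed in their sums, and their part in the cytokine results was not tested. The summed level of 11 neutrophil markers was 187, 158 and 13.2 CPM in the FNI libraries and 1722, 765 and 659 CPM in the FNI+I-125 libraries. Without MMP9, which macrophages also make, the remaining 10 stood at 147, 79.4 and 11.9 CPM against 1632, 55.8 and 156 CPM. FNI+I-125 replicate 1 stood apart in this smaller sum, and the other libraries overlapped between the groups. Of the 10 neutrophil markers tested, 2 (MMP9 and FPR1) were separated as higher, against 14.8% of all genes tested. MMP9 stood at 39.4, 78.7 and 1.24 CPM against 89.8, 710 and 503 CPM, with replicate 1 the lowest seed-bearing nerve. FPR1, kept by the filter through its FNI+I-125 libraries, stood at 2.28, 0.819 and 0.236 CPM against 25.6, 5.78 and 6.75 CPM. S100A9 stood at 35.4, 7.43 and 3.78 CPM against 508, 13.2 and 28.2 CPM, and CSF3R at 19.9, 13.5 and 0.709 CPM against 337, 9.80 and 35.2 CPM. Of the granule genes, MPO did not exceed 5 counts in any library. LCN2, chosen after its values were seen, stood at 25.5, 33.4 and 0.709 CPM against 3.92, 1.58 and 4.23 CPM (log2 fold change -2.61, unadjusted p = 0.0724 in edgeR) and was not high in FNI+I-125 replicate 1.

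The 12 macrophage and monocyte markers stood at 901, 1138 and 305 CPM against 1611, 2076 and 1930.0 CPM, with no overlap between the groups. CD68 was at 91.2, 133 and 16.5 CPM against 179, 497 and 309 CPM, and CSF1R at 219, 275.5 and 77.2 CPM against 336, 345 and 297 CPM. Of the 11 macrophage markers tested, 6 were separated between the groups as higher, against 14.8% of all genes tested. C1QC overlapped between the groups (log2 fold change 0.37, SE 0.42). LYZ, chosen after its values were seen, also overlapped, at 89.0, 87.3 and 9.46 CPM against 0.588, 224 and 689 CPM. None of the macrophage markers was at 0 in a library. T cell markers (9 genes) ran from 8.39 to 30.1 CPM in the FNI group and from 25.9 to 77.7 CPM in the FNI+I-125 group, led by LCK, CD3E and CD247. B and plasma cell markers (6 genes) ran from 18.6 to 515 and from 373 to 874 CPM, led by JCHAIN, MZB1 and CD79B. Mast cell markers (5 genes), led by GATA2, KIT and FCER1A, ran from 32.2 to 60.5 and from 29.9 to 42.6 CPM.

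For the resident cells, Schwann cell markers, led by PMP22, MBP and NGFR, were lower without overlap in the sum, and 0 of 8 had a positive log2 fold change. Fibroblast markers (10 genes), led by COL1A1, COL3A1 and COL1A2, and endothelial markers (7 genes), led by VWF, PECAM1 and CDH5, overlapped between the groups. Skeletal muscle markers, led by TTN, ACTA1 and DES, were high in FNI+I-125 replicates 1 and 2 but not in replicate 3. Epithelial and keratinocyte markers (10 genes), led by KRT5, KRT8 and AQP5, stood at 1248, 721 and 168 CPM against 59.4, 58.2 and 1596 CPM.

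**Figure D5:**
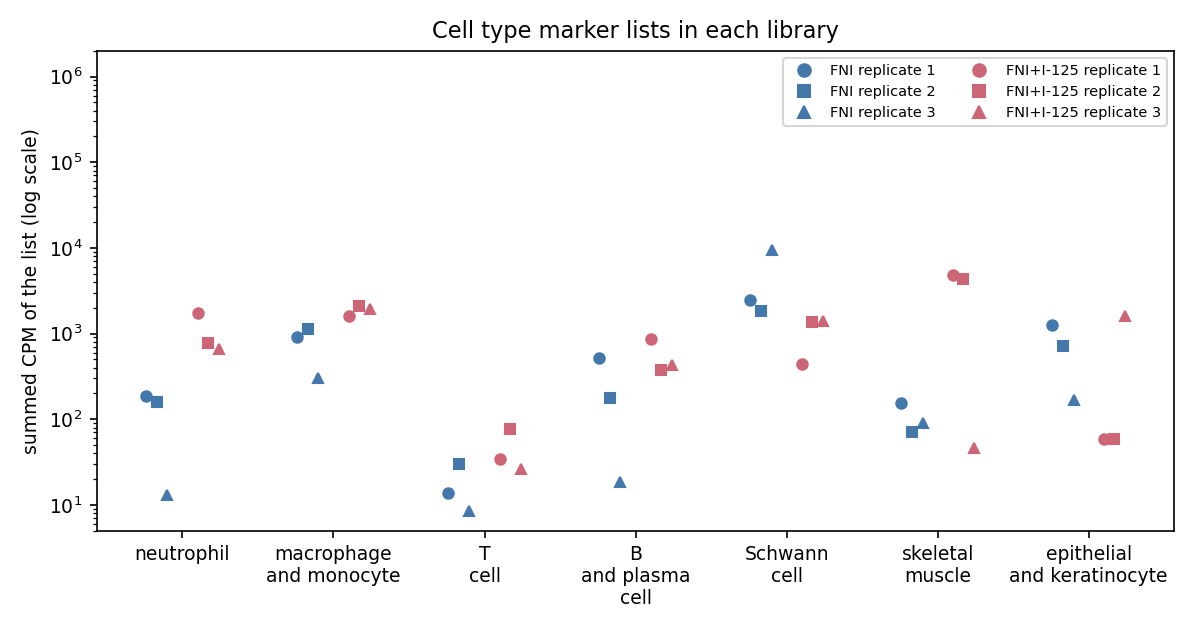
Summed CPM of 7 lists of cell type markers in each library, on a log axis. Neutrophil and macrophage sums are higher in all FNI+I-125 libraries, though without MMP9 the neutrophil sums overlap, with FNI+I-125 replicate 1 highest for neutrophils at 1722 CPM and FNI replicate 3 lowest at 13.2 CPM.

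The genes whose log2 CPM followed IL1B most closely over the 6 libraries were C16H1orf27 and MED14 (Pearson's r = 0.997 each), PTX3 (0.996), LOC100008716 (0.996) and IDO1 (0.995). For IL6 they were PGLYRP1 (r = 0.998), MEF2D (0.997), CAD (0.996), ZC3H12A (0.995) and FKBP10 (0.995). These values describe 6 points of which FNI+I-125 replicate 1 is the extreme, and they say nothing of the size of the change. IDO1 stood at 4.74, 5.86 and 1.24 CPM against 236, 6.27 and 27.0 CPM, while MED14 ran only from 23.6 to 44.1 CPM. Among the cytokine genes themselves, IL1B was closest to OSM (r = 0.960) and IL6 (0.939), IL1R1 to LIF (0.978) and IL1R2 to IL33 (0.936), over the same 6 libraries.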

How the data were processed

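Facial nerve mRNA of 6 rabbits was measured, 3 per group as the labels give the treatment. The authors selected mRNA with oligo dT and deposited raw counts per gene for each library, without normalization or pooling. The submitters' processing notes name HISAT2 and OryCun2.0. The counting program is not given in the sources used here, and the labels and the study's methods name different RNA extraction kits. Of 2992 LOC numbers, 542 were given a symbol from the RefSeq table of assembly mOryCun1.1, from which no coordinates are given. Date-named rows (25) were kept unnamed.

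Counts were fitted in R 4.3.3 with edgeR 4.0.16 (TMM, filterByExpr with a minimum count of 10, glmQLFit and glmQLFTest with default settings, two-sided), DESeq2 1.42.0 and limma 3.58.1 (voom). The standard error is the log2 fold change over the root of its F value. For single values, log2(CPM + 1) was permuted over all label assignments (exact permutation test, smallest p 0.1). The scripts were tested on simulated data.

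All 10 genes are named, with up to 3 genes per pathway list and direction by p-value, the 3 highest genes per marker list and the 5 genes closest to IL1B and to IL6. Of the Schwann cell markers, 2 are not reported here and are in no sum. The members and lists were chosen with earlier results of these data known. P-values measure the spread between these rabbits only.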

Additional observations from a re-analysis of the deposited data

How the results depend on the processing

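The count of called cytokine genes was 0 in 14 of 15 alternatives, including the fit with a replicate block (0 called, and 2 at the unadjusted p), and 3 with DESeq2 (IL1B, IL1RN and OSM). The count at the unadjusted p was 3 and ranged from 2 to 4 in 14 alternatives, with 1 under limma-voom. The genes behind this count changed. Without FNI replicate 1 or FNI replicate 3, IL1A was counted and IL1B was not. IL1A was the added gene with no filter, without FNI replicate 2 and without FNI+I-125 replicate 2, and IL6 was the added gene with DESeq2. Where IL1A passed the filter, it did so through its FNI+I-125 libraries. Samples with the same number did not deviate together (correlations of their deviations of 0.05, -0.23 and -0.19), so the number was not taken as a pairing. The cause of the difference between the tools was not tested. The log2 fold change of IL1R2 reversed to -0.20 without FNI replicate 3 and to -0.11 without FNI+I-125 replicate 1, with 0.66 as the highest value over single omissions. That of IL33 reversed to 0.0093 with limma-voom, 0.0225 with the replicate block, 0.48 without FNI replicate 2 and 0.0079 without FNI+I-125 replicate 3, with -0.46 as the lowest value. When libraries were omitted one at a time, the difference of the log2 ratio ran from -1.26 to 1.22 for IL1B over IL1RN, with -0.01 without FNI replicate 1 and the lowest value without FNI+I-125 replicate 1, and from -0.25 to 2.27 for IL1A over IL1RN. The other 4 ratios kept their direction in all 9 alternatives each. Fold changes of IL1A, IL1B, IL1RN, IL1R1, IL6, OSM and LIF kept theirs in every alternative that gave a value. A minimum of 10 counts per library left IL6 and OSM with no value. Depth limits IL1A, IL6 and OSM in the FNI group, where a library had 0 counts for each.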
